A study of Mus musculus with 24 samples.

Results

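The peaks of YAP, Myc and TEAD in the liver of tet-Myc/YAP mice were placed in the chromatin of the same genotype. They were the members of 6 lists, chosen by the sample titles, out of 23 lists used in a series of 24 liver samples. The YAP list held 11719 peaks, the Myc list 30327 and the TEAD list 52392, or 94438 in all. The other 3 lists were RNA polymerase II with 64678 peaks, H3K4me3 with 19486 regions and H3K27ac with 21854 regions.

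The mice had the genotype R26-rtTA;tet-Myc;tet-YAP and were fed doxycycline for 2 days to switch on both transgenes. The transactivator R26-rtTA, carried by every group of the series, is driven from a broadly active locus. Per the study, the YAP transgene sits at Col1A1 and encodes an activated mutant. Each antibody was used on 1 library of whole liver, so cell types were not separated, and fewer bound cells cannot be told apart from weaker binding per cell. No source used here says whether animals were pooled. No annotation of the mm9 build was used, so sites carry no gene names and the liver label was not checked against marker genes. Chromatin for YAP was fixed with the protein crosslinker DSG before formaldehyde, that for the other antibodies with formaldehyde alone. With 1 library per antibody there was no test, and the intervals given here are 95% intervals that cover counting only.

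Myc is a transcription factor that pairs with MAX and binds E-box sequences, many of them in promoters. YAP is the coactivator at the end of the Hippo pathway, which limits organ size and in liver restrains hepatocyte growth. It has no DNA-binding domain and reaches chromatin mostly through the TEAD transcription factors, which recognise a short motif found in many enhancers. H3K4me3 marks promoters, H3K27ac marks active promoters and enhancers, and RNA polymerase II marks transcribed or poised genes.

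The narrow lists rested on 17.4 M tags from YAP ChIP, 16.9 M from Myc, 32.6 M from TEAD and 45.8 M from RNA polymerase II ChIP. The YAP library was compared with a control of 167 M tags, 9.61 times its own number, while the other controls matched their ChIP libraries. The lists differed in strength. Fold enrichment, the ratio of the pileup to the local background, had a median of 6.80 for YAP, 10.4 for Myc and 7.79 for TEAD, and a maximum of 38.7 for YAP, 161 for Myc and 98.0 for TEAD. Only 5554 YAP peaks had a −log10 q of at least 10, against 25126 Myc and 42848 TEAD peaks. A site without a YAP peak is therefore a site where YAP was not called at this depth, not one shown to lack YAP.

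H3K4me3 covered 62.3 Mb and H3K27ac 201 Mb, which are 3.33% and 10.8% of the effective genome size used by the authors. Of the H3K4me3 regions 83.0% overlapped H3K27ac, and of the H3K27ac regions 35.8% overlapped no H3K4me3. Each peak was put in 1 of 3 classes by overlap of at least 1 bp. Peaks on an H3K4me3 region formed the first class, peaks on H3K27ac but not on H3K4me3 (distal H3K27ac) the second, and peaks on neither (unmarked) the third. Distal here means off H3K4me3 only, since distance to promoters was not measured. A distal peak could lie in an H3K27ac region that overlapped H3K4me3 elsewhere along its length.

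YAP peaks lay mostly at H3K4me3. In the YAP list 78.1% of peaks were at H3K4me3 (interval 77.3 to 78.8%), against 66.5% in the Myc list (65.9 to 67.0%) and 45.2% in the TEAD list (44.8 to 45.6%). Distal H3K27ac took 19.0% of YAP, 28.1% of Myc and 33.1% of TEAD peaks. Unmarked chromatin took 2.89% of YAP, 5.45% of Myc and 21.7% of TEAD peaks. The place of TEAD as the factor least often at H3K4me3 held under every alternative tried, but the order of YAP and Myc did not. When the Myc and TEAD lists were cut to their 11719 strongest peaks, 81.3% of Myc and 53.4% of TEAD peaks were at H3K4me3. The YAP list has that length and stayed whole at 78.1%, weak peaks included. With a −log10 q of at least 10 in all 3 lists the shares were 83.5% for YAP, 69.7% for Myc and 46.4% for TEAD. Chromosome by chromosome, the H3K4me3 share of YAP peaks ran from 72.3 to 83.5% over 19 chromosomes.

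**Figure D1:**
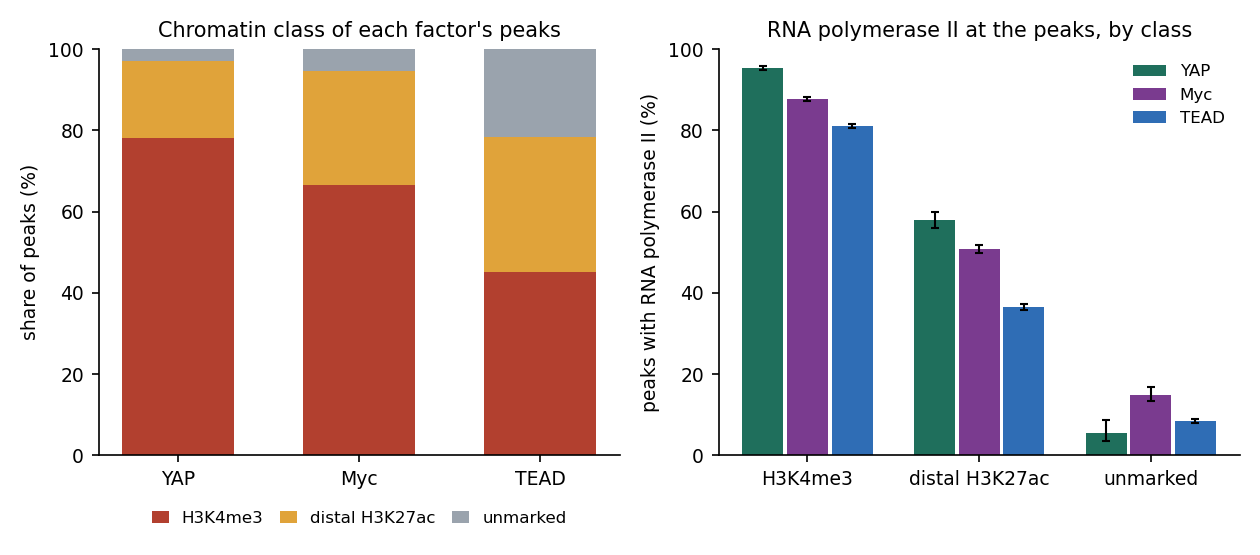
Left, share of the peaks of YAP, Myc and TEAD (percent) in each chromatin class of tet-Myc/YAP liver. Right, share of each factor's peaks that overlapped an RNA polymerase II peak (percent), by class, with 95% Wilson intervals. YAP bars are highest at H3K4me3 (95.4%) and at distal H3K27ac (58.0%), and at unmarked peaks no bar is above 14.9%.

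Density per length of chromatin fell from H3K4me3 to distal H3K27ac to unmarked chromatin for each factor. YAP had 146 summits per Mb inside H3K4me3, 15.2 per Mb in H3K27ac outside H3K4me3 and 0.206 per Mb in the rest of the genome. Myc had 319, 59.2 and 1.02 summits per Mb, and TEAD 369, 120 and 6.98. TEAD had the most summits per Mb of the 3 in each class. Its list was also the longest, and density was not scaled for list length, so the factors cannot be ranked by it.

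RNA polymerase II was found at 95.4% of YAP peaks at H3K4me3, 58.0% of those at distal H3K27ac and 5.60% of unmarked ones. For Myc the shares were 87.8, 50.8 and 14.9%, and for TEAD 81.1, 36.5 and 8.38%. Nearly all YAP peaks at H3K4me3 (9101 of 9151) also lay on H3K27ac. The 50 that did not had RNA polymerase II in 30.0% of cases (19.1 to 43.8%), against 95.8% of the 9101 with both marks.

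The partners of YAP changed with the class. At H3K4me3, 91.7% of YAP peaks overlapped both Myc and TEAD (91.2 to 92.3%), 4.35% overlapped Myc only, 3.29% TEAD only and 0.623% neither. At distal H3K27ac 78.1% overlapped both (76.3 to 79.8%) and 17.4% TEAD only, while 1.66% overlapped Myc only. At unmarked sites 28.9% overlapped both (24.3 to 33.9%), 36.3% TEAD only and 32.4% neither. TEAD was found at about the same share of YAP peaks in the marked classes, 95.03% at H3K4me3 and 95.5% at distal H3K27ac. Myc was found at 96.1% of YAP peaks at H3K4me3, 79.8% at distal H3K27ac and 31.3% at unmarked sites, where TEAD was found at 65.2%. Away from H3K4me3, YAP peaks lacked Myc more often than TEAD. The whole TEAD and Myc lists changed with the class in the same direction. From H3K4me3 to distal H3K27ac to unmarked sites, Myc was at 76.9, 41.3 and 8.03% of all TEAD peaks. TEAD was at 83.1, 82.4 and 54.9% of all Myc peaks. The change of partners with the class was thus not particular to YAP peaks.

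Read from the partners, the classes of YAP peaks fell apart. Of the 10234 YAP peaks with both partners (triple sites) 82.0% were at H3K4me3. Of the 443 with Myc only 89.8% were at H3K4me3, and of the 811 with TEAD only 37.1% were at H3K4me3 and 47.7% at distal H3K27ac. Of the 231 with neither partner 47.6% were unmarked. These last peaks were weak, with a median fold of 5.91 and a median width of 444 bp, against 6.80 and 569 bp at triple sites. RNA polymerase II was at 90.2% of triple sites, 90.5% of YAP peaks with Myc only, 44.3% of those with TEAD only and 21.6% of those with neither.

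The overlap of all 3 lists depended on which peaks were kept. Of all YAP peaks 87.3% were triple sites. When peaks over 1000 bp were removed from each list, which also takes wide Myc and TEAD peaks away as partners, 24.8% of the YAP peaks left were triple sites. When the Myc and TEAD lists were cut to their 11719 strongest peaks, the length of the YAP list, with no limit on width, 26.8% were. With a partner counted only where its summit lay within 200 bp of the YAP summit, an alternative added after the data had been examined, the share was 35.6%.

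Seen from TEAD, YAP was called far more often where Myc was also called. At H3K4me3, 46.3% of TEAD peaks with Myc had YAP (8425 of 18214, interval 45.5 to 47.0%), against 5.44% of TEAD peaks without Myc (297 of 5461, 4.87 to 6.07%). At distal H3K27ac the shares were 24.2% with Myc (23.2 to 25.2%) and 3.76% without (3.41 to 4.15%). At unmarked sites they were 10.8% with Myc (8.99 to 13.0%) and 1.19% without (0.995 to 1.41%). The ratio of the shares was 8.51 at H3K4me3, 6.44 at distal H3K27ac and 9.15 at unmarked sites.

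TEAD peaks with Myc were also stronger and wider, with a median fold of 9.37 and a median width of 746 bp, against 6.66 and 452 bp for TEAD peaks with neither Myc nor YAP. The comparison was therefore repeated within quartiles of TEAD fold. At H3K4me3, TEAD peaks with Myc had YAP in 26.5, 36.7, 46.4 and 63.3% of cases from the lowest to the highest quartile, and TEAD peaks without Myc in 2.65, 4.59, 5.65 and 13.6%. At distal H3K27ac the shares with Myc were 10.3, 12.9, 20.8 and 38.0%, and those without Myc 1.31, 2.38, 4.02 and 10.3%. In no quartile of either class did the intervals with and without Myc overlap. At H3K4me3 the weakest TEAD peaks with Myc had YAP more often than the strongest TEAD peaks without Myc.

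**Figure D2:**
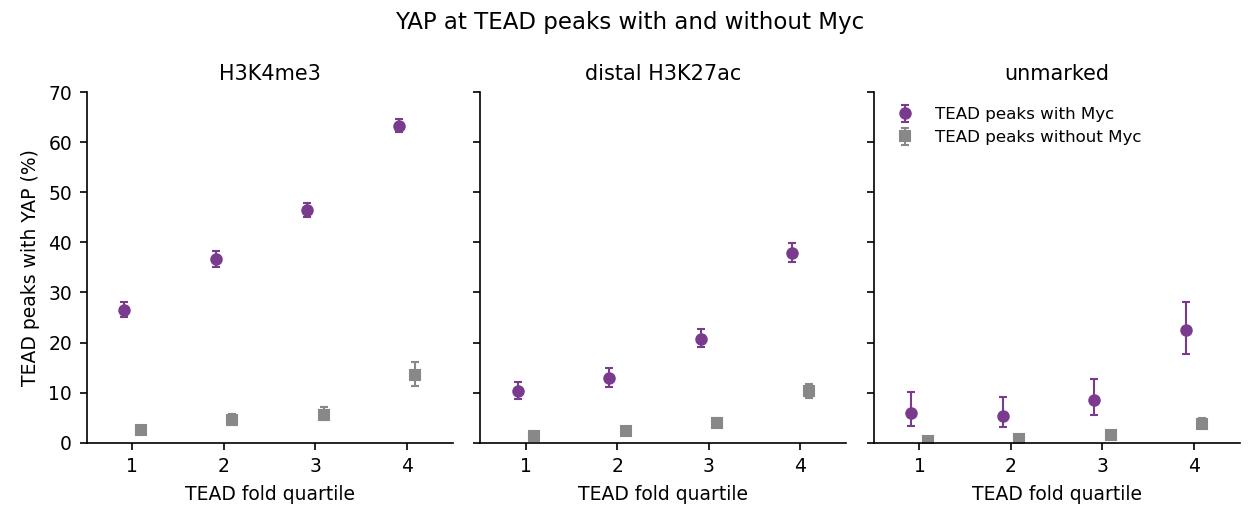
Share of TEAD peaks that overlapped a YAP peak (percent), by quartile of TEAD fold enrichment over the whole TEAD list (1 is the lowest) and chromatin class. Circles are TEAD peaks with Myc, squares TEAD peaks without Myc, bars are 95% Wilson intervals. Circles lie above squares at every position, with 63.3% and 13.6% in the highest quartile at H3K4me3.

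Within quartiles of TEAD width the same split held. At H3K4me3 YAP was at 19.8, 26.0, 37.8 and 64.5% of TEAD peaks with Myc from the narrowest to the widest quartile, and at 2.28, 3.45, 6.60 and 16.9% of those without. Both series rose with width, and the ratio narrowed to 3.82 in the widest quartile. The difference was also present when sites were split by RNA polymerase II. At H3K4me3 YAP was at 49.2% of TEAD peaks with Myc and 8.03% of those without Myc where polymerase was present, and at 17.1% and 2.95% where it was absent.

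The result did depend on how wide peaks were handled. When peaks over 1000 bp were removed from all 3 factor lists, YAP was at 25.8% of TEAD peaks with Myc and 24.1% of TEAD peaks without Myc at H3K4me3. That setting moves sites with a wide Myc peak into the group without Myc. With only TEAD peaks over 1000 bp removed and the Myc and YAP lists whole, an alternative added after the data had been examined, the shares were 35.5% with Myc and 4.54% without. With partners taken by summits within 200 bp they were 32.3% with Myc and 13.4% without. With each list cut to its 11719 strongest peaks they were 75.4% with Myc and 40.0% without, a setting in which the Myc list keeps only its stronger peaks.

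Seen from Myc, the pattern was similar. At H3K4me3 48.4% of Myc peaks with TEAD had YAP (47.6 to 49.1%), against 8.99% of Myc peaks without TEAD (8.08 to 9.999%). At distal H3K27ac the shares were 24.6% with TEAD and 2.27% without, and at unmarked sites 10.8% with TEAD and 0.938% without. By Myc fold quartile at H3K4me3, Myc peaks with TEAD had YAP in 22.8, 32.7, 48.9 and 68.7% of cases, and Myc peaks without TEAD in 3.35, 6.67, 13.2 and 22.7%. This split also depended on the settings. With peaks over 1000 bp removed from all 3 factor lists, YAP was at 26.2% of Myc peaks with TEAD and 21.2% of those without at H3K4me3, and at distal H3K27ac the direction turned, with 16.3% with TEAD and 17.6% without. With only Myc peaks over 1000 bp removed, an alternative added after the data had been examined, the shares were 31.4% with TEAD and 6.90% without at H3K4me3, and 20.5% with and 2.20% without at distal H3K27ac. At H3K4me3 they were 77.0% with TEAD and 52.1% without in lists of equal length, and 32.8% with and 19.9% without by summits within 200 bp.

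Where TEAD and Myc overlapped, the YAP share rose with the strength of each. The 18214 TEAD peaks with Myc at H3K4me3 were split by the fold quartile of TEAD and of the overlapping Myc peak with the nearest summit. YAP was at 11.4% of sites in the lowest quartile of both (9.22 to 14.1%) and at 76.9% of sites in the highest quartile of both (75.2 to 78.5%). With Myc in its highest quartile and TEAD in its lowest the share was 38.8%, and with TEAD highest and Myc lowest it was 38.7%. At distal H3K27ac the corners differed. The share was 8.97% with both lowest, 8.55% with Myc highest and TEAD lowest (117 sites, 4.71 to 15.0%), 28.1% with TEAD highest and Myc lowest, and 52.7% with both highest. In the lowest quartile of TEAD fold at distal H3K27ac, then, the YAP share showed no rise with Myc fold that exceeded its intervals. In the next TEAD quartile it was 11.2% with Myc lowest (8.74 to 14.4%) and 28.4% with Myc highest (21.7 to 36.1%).

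**Figure D3:**
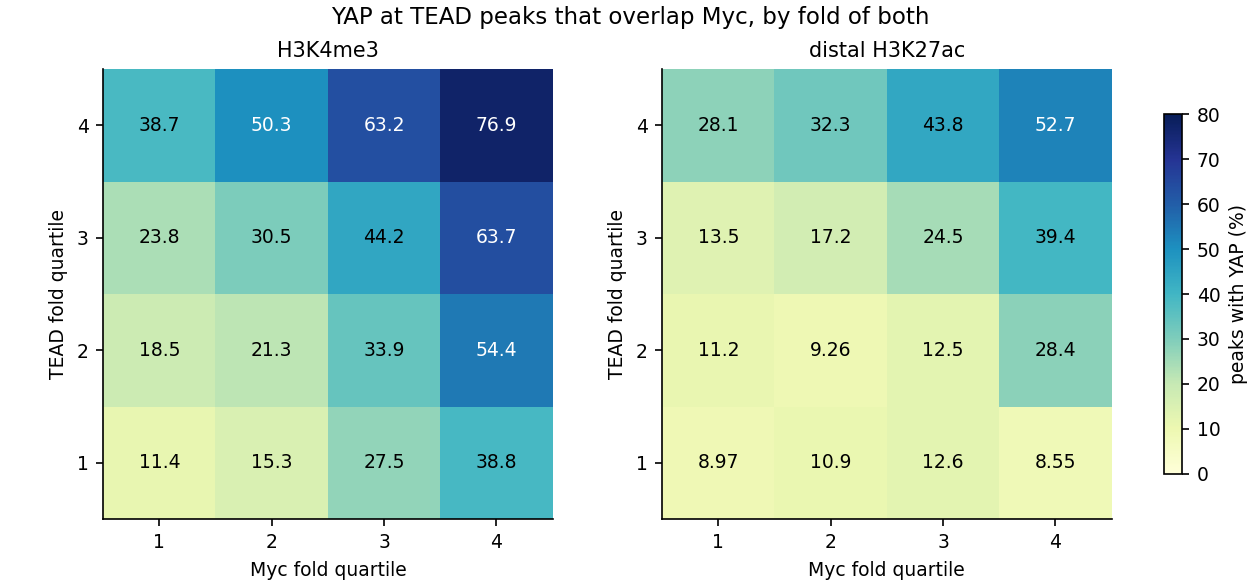
Share of TEAD peaks overlapping Myc that also overlapped YAP (percent, colour and printed value), by fold quartile of the Myc peak (horizontal) and of the TEAD peak (vertical), each quartile taken over its whole list. At H3K4me3 the share runs from 11.4 to 76.9% along the diagonal, at distal H3K27ac from 8.97 to 52.7%.

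TEAD and Myc were not equally strong in the classes. TEAD peaks with YAP and Myc had a median fold of 14.6 at distal H3K27ac and 11.4 at H3K4me3. Myc peaks with YAP and TEAD had the reverse order, 11 at distal H3K27ac and 16.6 at H3K4me3. YAP folds at triple sites had medians of 6.47 at distal H3K27ac and 7.01 at H3K4me3, in a list whose folds span a narrow range. Among all YAP peaks, 50.7% at H3K4me3 and 35.4% at distal H3K27ac had a −log10 q of at least 10. Across triple sites the rank correlation of fold was 0.23 for YAP with Myc, 0.14 for YAP with TEAD and −0.06 for TEAD with Myc (Spearman, n = 10234 sites, a description, since the sites share 1 library per factor). At distal H3K27ac the order was turned, with 0.21 for YAP with TEAD and 0.13 for YAP with Myc over 1741 sites.

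TEAD peaks with neither YAP nor Myc made up 48.3% of the TEAD list and had the lowest median fold, 6.66, and the smallest median width, 452 bp, of the 4 combinations. They were 21.8% of TEAD peaks at H3K4me3, 56.5% at distal H3K27ac and 90.9% at unmarked sites. Their median fold at H3K4me3 was 6.59 and RNA polymerase II was at 47.7% of them, against 11.4 and 96.6% for TEAD peaks with both. Myc peaks with neither YAP nor TEAD made up 15.4% of Myc peaks at H3K4me3, 17.2% at distal H3K27ac and 44.7% at unmarked sites.

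The strongest triple sites differed in how close the 3 summits lay. The YAP peak with the highest fold, chr1:57462970-57464086 (mm9), had a YAP fold of 38.7, a Myc fold of 28.0 and a TEAD fold of 46.8. Its Myc summit lay 49 bp to the right of the YAP summit and its TEAD summit at −77 bp, to the left. It sat in a 4147 bp H3K4me3 region with an RNA polymerase II peak of fold 19.9. The second, chr7:148661784-148663105, had a YAP fold of 32.8, a Myc fold of 36.7 and a TEAD fold of 85.25, with the TEAD summit at 49 bp and the Myc summit at −208 bp. The third, chr10:127930747-127931386, had a YAP fold of 26.3, a Myc fold of 16.6 and a TEAD fold of 77.1. Its TEAD summit was 1 bp from the YAP summit and its Myc summit at −25 bp. All 3 lay in H3K4me3 and H3K27ac regions.

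The strongest distal triple sites had lower YAP folds. The first, chr4:57071272-57071861, had a YAP fold of 14.8, a Myc fold of 7.43 and a TEAD fold of 19.2, in a 6174 bp H3K27ac region. The next, chr17:81174367-81175278, had a YAP fold of 13.9 and a TEAD fold of 32.1 in an H3K27ac region of 48416 bp. RNA polymerase II was called at both, with folds of 11.8 and 7.50. At an unmarked triple site, chr8:41357613-41358176, the YAP fold was 13.0, the Myc fold 6.84 and the TEAD fold 12.4, with the Myc summit at 1 bp and the TEAD summit at −1 bp, and no polymerase peak was called.

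Strong peaks also occurred without YAP. The Myc peak chr11:6426405-6429350 had a fold of 145 and overlapped a TEAD peak of fold 4.20, H3K4me3, H3K27ac and an RNA polymerase II peak of fold 32.4, but no YAP peak. The Myc peak chr14:115441333-115442560 had a fold of 108 in a 3869 bp H3K4me3 region and neither YAP nor TEAD. The TEAD peak chr4:106531683-106533045 had a fold of 85.25 in an 18778 bp H3K27ac region and neither YAP nor Myc. YAP without Myc reached a fold of 12.4 at chr1:154749960-154750432, in a 4872 bp H3K4me3 region with H3K27ac. RNA polymerase II was called there and the TEAD peak had a fold of 9.58. The same YAP fold was reached at chr13:43992141-43992802, which was unmarked and held a TEAD peak of fold 37.3. YAP without TEAD reached a fold of 16.0 at chr17:36408132-36408855, on a Myc peak of fold 66.6 and H3K4me3. The strongest YAP peak with neither, chr4:3797622-3798289, had a fold of 10.6 and lay on none of the other 5 lists.

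At triple sites the YAP summit was about as far from TEAD as from Myc. The median distance was 158 bp between YAP and TEAD (154 to 162 bp), 140 bp between YAP and Myc (136 to 145 bp) and 186.5 bp between Myc and TEAD (182 to 191 bp). Where several partner peaks overlapped, the one nearest the YAP summit was used. That choice takes the smallest YAP distances available at a site, but not always the smallest Myc to TEAD distance. The 3 medians are therefore not on equal terms, and the effect of the choice on them was not tested. With all 3 peaks at most 1000 bp wide the medians were 114 bp for YAP to TEAD, 94 bp for YAP to Myc and 112 bp for Myc to TEAD. YAP was nearer TEAD at 48.4% of the 10234 sites (47.4 to 49.4%) and nearer Myc at 51.3% (50.3 to 52.3%), with 28 sites at equal distance. The median YAP-TEAD distance exceeded the YAP-Myc distance by 18 bp, and it stayed the larger by 8 to 25 bp under the 6 alternatives tried. These distances are below the fragment lengths estimated by the authors' peak caller, 364 bp for YAP, 359 bp for Myc and 287 bp for TEAD.

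Summits lay closer together away from H3K4me3. At H3K4me3 the medians were 169 bp for YAP to TEAD, 149 bp for YAP to Myc and 210 bp for Myc to TEAD. At distal H3K27ac they were 120, 117 and 129 bp, and at the 98 unmarked sites 77, 73 and 102.5 bp. The distance from the first to the last of the 3 summits had a median of 299 bp at H3K4me3 (292 to 305 bp), 200 bp at distal H3K27ac (191 to 206 bp) and 143.5 bp at unmarked sites (112 to 182 bp). Peak width moved with this difference. At triple sites with all 3 peaks at most 1000 bp wide, the Myc to TEAD median was 119 bp at H3K4me3 and 97 bp at distal H3K27ac, and the YAP to Myc median 93 and 100 bp. The gap between classes thus fell to 22 bp for Myc to TEAD, and for YAP to Myc the order of the classes turned, with intervals that overlapped.

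**Figure D4:**
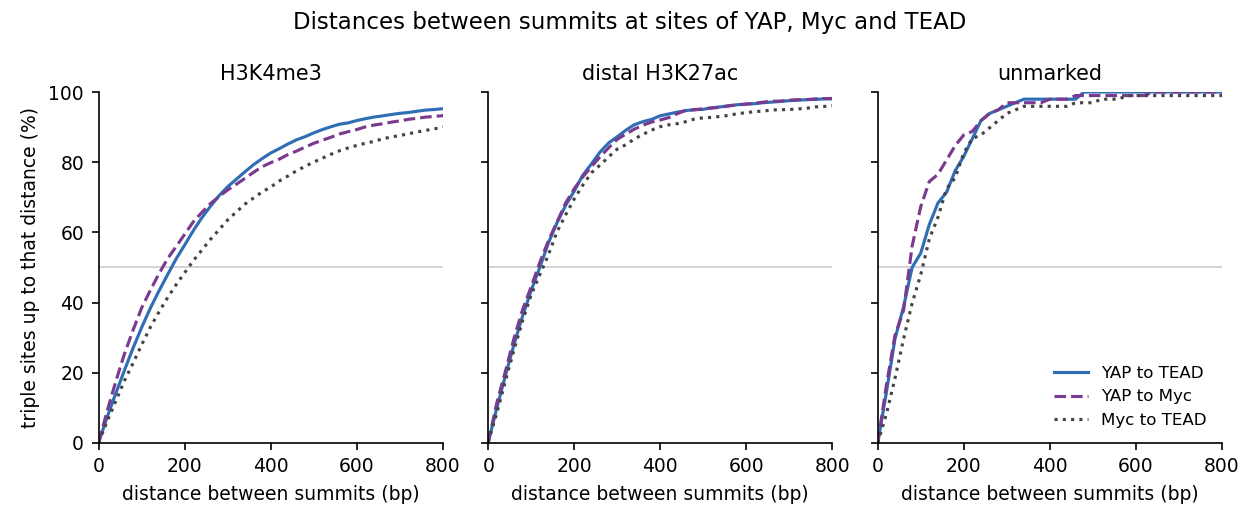
Cumulative share of triple sites (percent) whose summits lay up to a given distance apart (bp), for YAP to TEAD, YAP to Myc and Myc to TEAD, by chromatin class. The grey line marks 50%. The curves climb later at H3K4me3 (medians 169, 149 and 210 bp) than at distal H3K27ac (120, 117 and 129 bp).

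The order of the summits along the chromosome was mixed. YAP lay between Myc and TEAD at 40.9% of triple sites (40.0 to 41.9%), Myc was in the middle at 30.1% and TEAD at 28.4%. Both partners were chosen by nearness to the YAP summit, which does not treat the 3 factors alike. The effect of this choice on the order was not tested. YAP was in the middle at 41.8% of sites at H3K4me3 and 36.6% at distal H3K27ac. With all 3 peaks at most 1000 bp wide the shares were 35.7% for YAP, 34.0% for Myc and 29.8% for TEAD. At 1026 sites (10.03%) YAP was within 100 bp of TEAD and over 200 bp from Myc, and at 1343 sites (13.1%) it was within 100 bp of Myc and over 200 bp from TEAD.

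A small number of triple sites were tight and a small number were spread out. At 18 sites all 3 summits fell within 10 bp, 13 of them at H3K4me3. The strongest of these by YAP fold, chr14:22650333-22651244, had a YAP fold of 13.6, with the Myc summit at −1 bp and the TEAD summit at −9 bp. At 314 sites (3.07%) the YAP summit was over 500 bp from both partners, and 293 of these were at H3K4me3. At chr12:86815567-86817413, with a YAP fold of 13.7, the Myc summit was at −1792 bp and the TEAD summit at −1281 bp. Overlap of peaks at such sites does not place the factors at one position. The 10234 triple sites used 9744 Myc peaks and 9890 TEAD peaks, since 456 Myc and 322 TEAD peaks were the partner of more than 1 YAP peak.

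Some of the distances varied with fold enrichment. Quartiles were taken here over the triple sites, not over a whole list. From the lowest to the highest quartile of YAP fold the median YAP to Myc distance was 175, 139, 129 and 119 bp, and the YAP to TEAD distance 179, 157, 157 and 142 bp. With Myc fold the Myc to TEAD distance went the other way, with medians of 150, 166, 202 and 247 bp. With TEAD fold it was nearly level, at 185, 186, 185.5 and 191 bp. Over the same TEAD quartiles YAP to Myc was 144, 134, 137 and 146 bp, and YAP to TEAD 165, 161, 161 and 143 bp. Class and peak width were not held fixed within these quartiles. Sites with a peak over 1000 bp wide had a Myc to TEAD median of 235.5 bp, against 112 bp at the other triple sites. Myc peaks with TEAD and YAP had a Myc to TEAD median of 174 bp, against 130 bp for Myc peaks with TEAD but without YAP. With both peaks at most 1000 bp wide those medians were 112 bp with YAP (106 to 118 bp) and 106 bp without (104 to 109 bp).

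H3K4me3 regions with all 3 factors were the wide ones. Of the 19486 regions, 7452 (38.2%) held all 3 factors and 3472 (17.8%) held none. Regions with all 3 had a median width of 3298 bp, RNA polymerase II in 97.2% and H3K27ac in 99.6%. Regions with none had a median width of 1627 bp, RNA polymerase II in 19.5% and H3K27ac in 34.8%. Between them stood 5570 regions with Myc and TEAD but no YAP, with a median width of 2439.5 bp and RNA polymerase II in 87.5%. YAP without both partners was rare, with 137 regions of YAP and TEAD, 137 of YAP and Myc and 14 of YAP alone.

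Wider regions can hold more peaks, so the YAP share was also taken within width quartiles. Of H3K4me3 regions with Myc and TEAD, 33.3, 50.5, 61.1 and 70.3% held YAP from the narrowest to the widest quartile. Regions with TEAD only held YAP in 6.64, 9.36, 9.38 and 7.43% of cases, with no steady trend, and regions with Myc only in 1.67, 12.3, 18.8 and 15.3%. Regions with neither held YAP in at most 0.692% of cases in a quartile. In the widest quartile 0 of 350 such regions held YAP, for which the Wilson upper limit was 1.09%. Over all widths the shares were 57.2% with Myc and TEAD, 11.2% with Myc only, 7.81% with TEAD only and 0.402% with neither. With peaks over 1000 bp removed from the factor lists, which puts regions with only wide Myc or TEAD peaks among those without that factor, they were 43.8, 32.6, 42.5 and 23.0%. Regions with Myc only then lay below regions with TEAD only, and the intervals of regions with TEAD only and of regions with both overlapped. With lists of equal length the shares were 80.1, 57.6, 48.0 and 12.1%.

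H3K27ac regions that overlapped no H3K4me3, called distal H3K27ac regions here, were more often left without YAP. They covered 58.4 Mb, out of 148 Mb of H3K27ac outside H3K4me3 in which distal peaks were counted. Of 7821 such regions, 997 (12.7%) held all 3 factors, 2356 (30.1%) Myc and TEAD, 2323 (29.7%) TEAD alone and 1671 (21.4%) none. RNA polymerase II was in 58.0% of those with all 3, 44.4% of those with Myc and TEAD, 20.7% of those with TEAD alone and 15.3% of those with none. Median widths were 8763 bp with all 3, 6601 bp with Myc and TEAD, 5300 bp with TEAD alone and 4383 bp with none. YAP was in 29.7% of regions with Myc and TEAD, 8.07% of those with TEAD only and 0.772% of those with neither. In the widest quartile the share with Myc and TEAD was 39.7%, and in the narrowest 16.1%.

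More than 1 YAP peak in a region was uncommon. Of H3K4me3 regions with YAP 14.3% held 2 or more YAP peaks, while 27.3% of those with Myc held 2 or more Myc peaks and 35.7% of those with TEAD 2 or more TEAD peaks. H3K4me3 regions with 2 or more YAP peaks had a median width of 5987.5 bp, against 2991.5 bp with 1. Of H3K27ac regions that overlapped no H3K4me3 and held YAP, 7.91% held 2 or more.

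Within H3K4me3 regions YAP summits sat nearest the middle by median distance, over the regions that each list occupied. Those regions differed, since YAP was in 39.7% of H3K4me3 regions, Myc in 73.1% and TEAD in 75.8%. Regions with several peaks were also more frequent for Myc and TEAD than for YAP. Positions were not recomputed with lists of equal length. The median distance to the region's centre was 570 bp for YAP (551 to 589.5 bp), 612.5 bp for Myc, 719.5 bp for TEAD and 671.5 bp for RNA polymerase II. In the central 50% of their region lay 69.4% of YAP, 64.6% of Myc, 57.2% of TEAD and 62.6% of RNA polymerase II summits. The distance to the nearest RNA polymerase II summit had a median of 188 bp for YAP, 199 bp for Myc and 291 bp for TEAD. Of YAP summits 52.1% were within 200 bp of a polymerase summit, against 50.2% of Myc and 38.3% of TEAD summits.

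**Figure D5:**
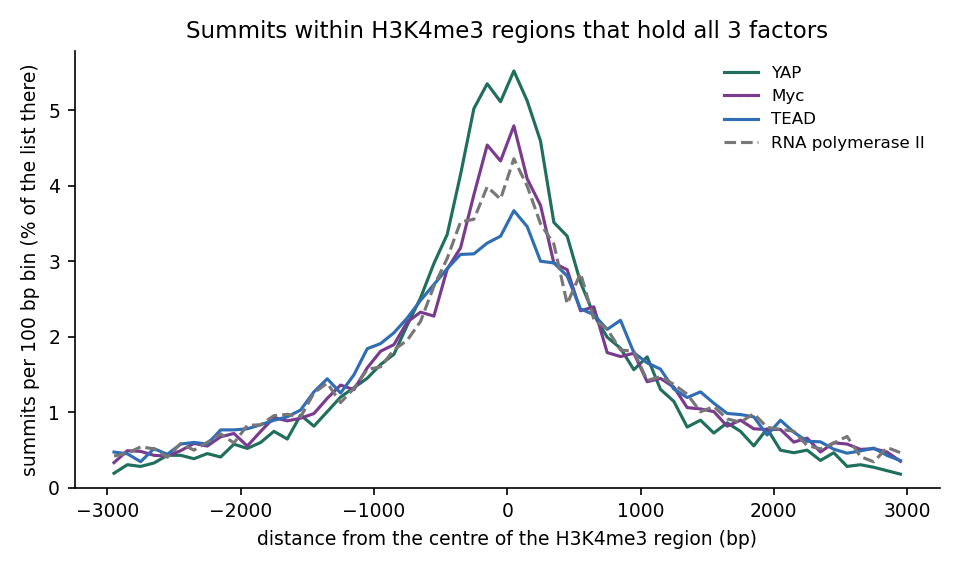
Summits per 100 bp bin (percent of the list's summits in these regions) by distance from the centre of the H3K4me3 region (bp), for H3K4me3 regions that held all 3 factors. Just right of the centre the YAP line reaches 5.52%, the Myc line 4.79%, the RNA polymerase II line 4.36% and the TEAD line 3.67%.

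The broad lists also mark the stronger cores of each region. Cores made up 60.3% of H3K4me3 length and held 90.1% of YAP summits in these regions (89.5 to 90.7%), 85.9% of Myc, 83.3% of RNA polymerase II and 79.1% of TEAD summits. For H3K27ac the cores were 38.6% of length over all its regions, the parts inside H3K4me3 included. The core share of H3K27ac outside H3K4me3 was not computed, so 38.6% is not a baseline for distal peaks. At distal H3K27ac the cores held 88.0% of YAP summits (86.6 to 89.3%), 80.5% of Myc and 62.2% of TEAD summits. They held 91.0% of the YAP summits at triple sites. The order YAP, Myc, TEAD was the same in both kinds of region, and the spread between the factors was larger at distal H3K27ac. Core shares were not recomputed with lists of equal length.

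Unmarked YAP peaks were few and mostly far from any mark. Their median distance to the nearest region was 41949.5 bp over 328 peaks (34567 to 54143 bp), against 17622 bp for Myc and 21223.5 bp for TEAD. Only 1 of them lay within 1000 bp of a region and 5.90% within 5000 bp, against 14.8% of Myc and 14.6% of TEAD peaks within 5000 bp. The other 11 unmarked YAP peaks were on unplaced contigs, where neither mark had a region, and 41 of the 339 (12.1%) had a fold under 5. Unmarked TEAD peaks numbered 11376, with a median fold of 6.79 and a median width of 435 bp, against 8.43 and 693 bp for TEAD peaks at H3K4me3.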

How the data were processed

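The authors aligned reads to mm9 with BWA 0.6.2 and called peaks for each library with MACS2 2.0.9, as named in the submitters' processing notes beside SAMtools. Each deposited narrow list holds the pileup signal under every summit, a fold enrichment (the ratio of that pileup to the control's local level), and the −log10 of p and of q. Per the file headers the p-value cutoff was 1.00e-05. The deposited broad lists of H3K4me3 and H3K27ac carry a score, of unstated scale and not compared, and blocks that mark stronger cores. No source used here gives their depth or cutoffs.

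An overlap was 1 bp or more, found in Python 3.11.15 (numpy 2.4.6, pandas 2.3.3). Where several peaks overlapped, the partner was the one with the nearest summit. Counts of overlapping peaks were the same as those of bedtools 2.31.1 in 4 of 4 pairs of lists, and the code passed 8 of 8 checks on simulated data. Shares carry Wilson 95% intervals and medians binomial ones (scipy 1.17.1). They leave out variation between animals, and neighbouring peaks are not independent. Quartiles were taken over a whole list for the YAP shares of peaks, and over all regions of a kind for those of regions. For summit distances they were taken over the triple sites alone, with ties split by position. Named sites were the 3 of highest fold in each class (ties by −log10 q, then position) on placed chromosomes other than 18, likewise for triple sites with all summits within 10 bp or with YAP over 500 bp from both partners, and some of these are described. The members and lists were chosen with earlier results of these data known. No p-value was computed and no other genotype was compared. The alternatives were a −log10 q of at least 10, lists of equal length, the summit inside the region or peak matched, peaks up to 1000 bp, a fold of at least 5, summits within 500 bp in place of overlap, and mark regions widened by 1000 bp, with 3 more added after the data had been examined. Figures were drawn with matplotlib 3.10.9.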

Additional observations from a re-analysis of the deposited data

How the results depend on the processing

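No paired analysis was possible because each antibody had 1 library. Of the 16 differences followed, such as the YAP share of TEAD peaks with minus without Myc, 96 of 100 values kept their sign. The setting with the summit inside the matched peak could not change the YAP shares of H3K4me3 regions. Their differences under it are counted among the 100 and could not turn. The H3K4me3 share of YAP minus Myc peaks was −3.26 points with lists of equal length, where only the Myc and TEAD lists were cut. With peaks up to 1000 bp the YAP share of Myc peaks with minus without TEAD at distal H3K27ac was −1.29 points, the YAP share of H3K4me3 regions with Myc only minus TEAD only −9.93 points, and the YAP to Myc median at H3K4me3 minus distal H3K27ac −7 bp. The sizes moved more. Cut to equal length, 81.3% of Myc and 53.4% of TEAD peaks were at H3K4me3 and 26.8% of YAP peaks were triple sites. YAP was then at 75.4% of TEAD peaks with Myc and 40.0% without at H3K4me3, and 51.6% with and 22.2% without at distal H3K27ac. Median distances were 166 bp for YAP to TEAD, 158 bp for YAP to Myc and 225 bp for Myc to TEAD, and YAP was nearer TEAD at 49.7% of sites. With a −log10 q of at least 10 the H3K4me3 shares were 83.5% for YAP, 69.7% for Myc and 46.4% for TEAD. The YAP shares were 29.3% with Myc and 2.98% without at H3K4me3, and 11.8% with and 1.58% without at distal H3K27ac, YAP lay 148 bp from TEAD and 123 bp from Myc, and was nearer TEAD at 46.2% of sites. With peaks up to 1000 bp the H3K4me3 shares were 76.7, 56.7 and 39.8% for YAP, Myc and TEAD, and 24.8% of YAP peaks were triple sites. The YAP shares were 25.8% with Myc and 24.1% without at H3K4me3, and 16.2% with and 4.58% without at distal H3K27ac. Distances were 114, 94 and 112 bp for YAP to TEAD, YAP to Myc and Myc to TEAD, with YAP nearer TEAD at 46.2%. With only TEAD peaks limited to 1000 bp the YAP shares were 35.5% with Myc and 4.54% without, and 17.8% and 3.02% at distal H3K27ac. With the summit inside the matched peak or region, 65.5% of Myc and 43.8% of TEAD peaks were at H3K4me3 and 79.3% of YAP peaks were triple sites. The YAP shares were 38.2% with Myc at H3K4me3, and 21.7% with and 3.30% without at distal H3K27ac, and distances 143, 129 and 179 bp. A fold of at least 5 gave H3K4me3 shares of 78.9% for YAP and 46.0% for TEAD, 84.0% triple sites, and YAP shares of 47.2% with Myc and 6.57% without at H3K4me3. Summits within 200 bp gave 35.6% triple sites, YAP shares of 32.3% with Myc and 13.4% without at H3K4me3, and 18.7% with and 4.57% without at distal H3K27ac. Partners within 500 bp gave distances of 134, 112 and 147 bp and YAP nearer TEAD at 46.2%. Mark regions widened by 1000 bp gave H3K4me3 shares of 67.1% for Myc and 46.6% for TEAD. Of 156 other values 92 moved beyond their counting intervals, which are narrow in lists of this size. The 156 include YAP shares of H3K4me3 regions with the summit inside the matched peak, which could not move. Nor could the distal H3K27ac and unmarked shares of YAP peaks with lists of equal length, since the YAP list stayed whole. Beyond the handling of wide peaks, the cause of these moves was not tested. How many more YAP peaks a deeper YAP library would give was not tested.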
